A study of Mus musculus with 12 samples.

Results

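Mouse fibroblasts labelled as treated with TGF-beta1 and inhibition medium (TGF_KD_CM) were compared with fibroblasts labelled as treated with vector medium alone (VEC_CM). The comparison is between 6 of the 12 libraries of the series, 3 in each group, and covers the 14400 of 24619 genes in the deposited count table that passed a filter on low counts. It asks which genes stood away from the vector level although the microRNA was inhibited in the adipocytes, which genes were at that level, and which lay on its other side. A further group, TGF_VEC_CM, is labelled with TGF-beta1 and vector medium. Its 3 libraries have no weight in the contrast, and their values are given beside it. All 12 libraries, with those of the remaining group OE_CM (overexpression medium), entered the filter, the scaling and the estimate of spread.

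Conditioned medium is culture medium taken from other cells with what they released into it. Here those cells were adipocytes infected with a lentivirus, either a vector lentivirus (VEC_CM and TGF_VEC_CM) or a hsa-miR-548ay inhibition lentivirus (TGF_KD_CM). All groups were labelled as primary mouse cardiac fibroblasts, grown with 10% serum, starved for 12 h and held for 24 h in the medium. Groups follow the titles; the treatment labels of TGF_KD_CM replicates 2 and 3 name miR-549ay and miR-550ay in place of miR-548ay. TGF_KD_CM differs from VEC_CM in TGF-beta1, in the lentivirus given to the adipocytes and in the part of the study it belongs to, so these 3 cannot be told apart in the contrast. The labels name TGF-beta1 beside the medium as the treatment of the fibroblasts; neither its dose nor how it was combined with the medium was settled here. The labels do not say whether libraries of a group are separate cultures, so p-values measure library-to-library spread alone, which may be of technical origin.

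The 6 libraries held between 36317652 and 36806692 counts each, and none of the replicate pairs differed by as little as sampling noise. Between 18671 and 18815 genes had a count in VEC_CM, and between 19333 and 19406 in TGF_KD_CM. The fibroblast label was met in part. The collagen genes Col1a1 and Col1a2, the intermediate filament gene Vim and the receptor genes Ddr2 and Pdgfra were abundant, whereas the fibroblast genes Dcn, Lum, Thy1 and Tbx20 were at or near 0 in both groups and Tcf21 was not analysed here. Of the 7 fibroblast markers that were tested 4 rose and 1 fell, against 21.2% and 20.4% of all genes. The marker that fell was Vim (log2 -0.54 ± 0.02). Summed markers of most other cell types differed between the groups as well. The summed level of the leukocyte markers was 48.7 to 51.5 CPM (counts scaled to a common library size) in VEC_CM and 33.4 to 35.9 CPM in TGF_KD_CM. Of the 11 that were tested 7 fell and 0 rose, against 20.4% and 21.2% of all genes. Adipocyte markers summed to 269 to 285 CPM and 156 to 167 CPM, nearly all of it Fabp4, with Adipoq, Plin1 and Lep near 0. Of the 6 tested 2 fell and 1 rose, against the same 20.4% and 21.2% of all genes. The member that rose was Cidec, a lipid droplet gene, from 7.92 ± 0.716 to 17.0 ± 1.45 CPM (SD, n = 3; log2 1.10 ± 0.089). Cardiomyocyte markers summed to 72.6 to 77.7 CPM and 99.4 to 106 CPM, most of it Tnnt2, mural markers to 694 to 717 CPM and 764 to 783 CPM, and mesothelial markers to 59.1 to 65.3 CPM and 75 to 78.8 CPM, most of it Msln. Endothelial markers stayed under 1.7 CPM in every library of both groups. The part of other cells in the results was not tested, and in bulk RNA fewer cells of a type and less RNA per cell cannot be told apart.

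TGF-beta1 binds a pair of receptor kinases that phosphorylate SMAD2 and SMAD3, which move to the nucleus and switch on matrix genes together with inhibitors of the pathway itself, such as Smad7 and Skil. In heart fibroblasts it is best known for driving the change to matrix-producing, contractile myofibroblasts. Type I interferon acts through the kinases JAK1 and TYK2 on a factor complex that includes STAT2 and IRF9 and binds a repeated GAAA element before antiviral genes. Cells control cholesterol through SREBP2, the product of Srebf2, which switches on the genes of sterol synthesis and uptake when membrane sterol is low.

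Interferon-stimulated genes made the largest rises between VEC_CM and TGF_KD_CM, and genes of sterol synthesis and ERK feedback were among the largest falls. Of the 14400 genes, 3060 (21.2%) were higher and 2943 (20.4%) lower in TGF_KD_CM (edgeR quasi-likelihood test, Benjamini-Hochberg adjusted p under 0.05), and the median of all genes was -0.003 on the log2 scale. At least 2-fold differences were fewer, with 658 genes higher (4.57%) and 192 lower (1.33%). Many of them were scarce, since 317 of the 658 and 102 of the 192 had a mean below 1 CPM over all 12 libraries. The low-count filter took in libraries of any group, so a gene near 0 in VEC_CM could enter through groups where it was high. Such a gene could hardly be called lower. In the text a gene rose or fell only where it passed the edgeR test. A gene was counted as at the vector level where the 95% interval of its change lay within 1.2-fold either way, which held for 6005 genes (41.7%). That count depends on abundance. It covered 77% of genes with a mean of at least 64 CPM over all 12 libraries, and 0 of those below 4 CPM. A gene could pass the test and also be at the vector level, so the counts overlap.

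**Figure D1:**
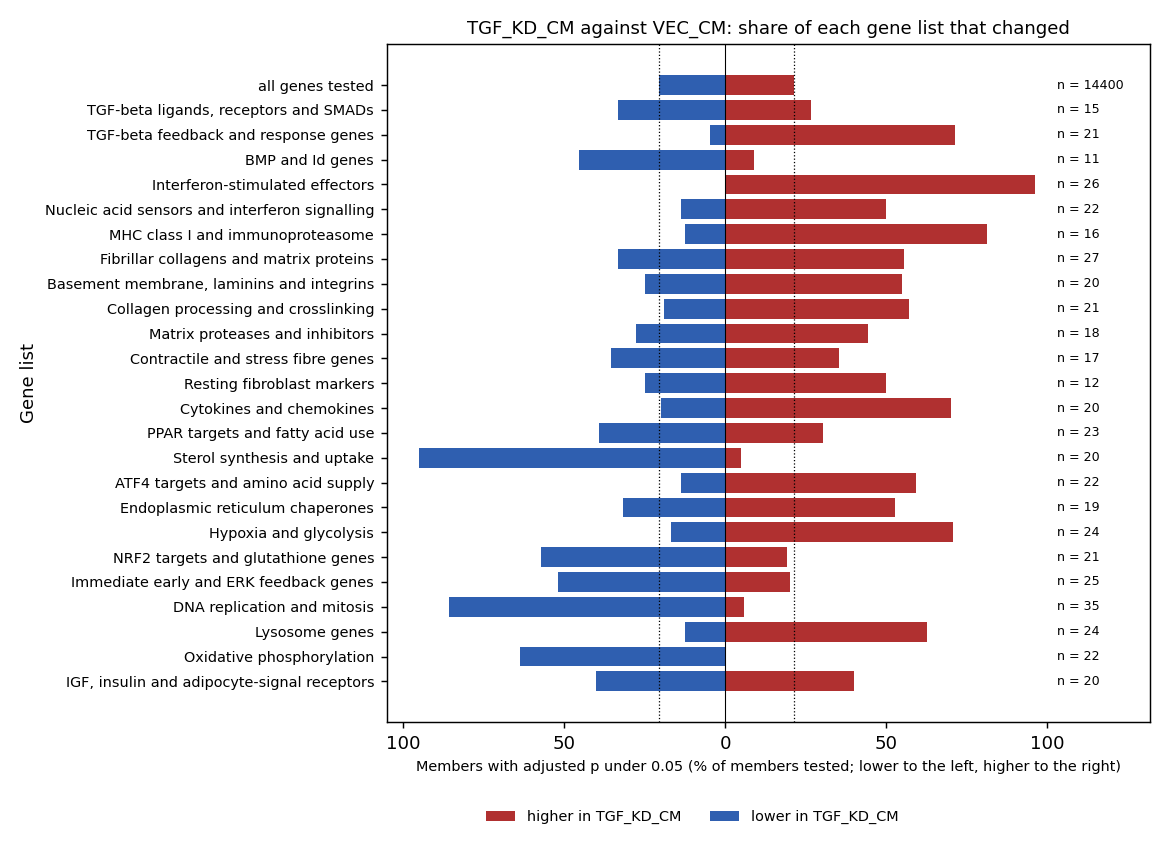
For each gene list (rows), the bars show the percentage of its tested members that were higher (right) or lower (left) in TGF_KD_CM than in VEC_CM at an edgeR adjusted p under 0.05, with the number tested at the end of the row and dotted lines at the shares over all genes. The top row gives all 14400 genes, with 21.2% higher and 20.4% lower; of the interferon-stimulated effectors 25 of 26 were higher, and of the sterol genes 19 of 20 lower.

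Most effectors that interferon induces were scarce in VEC_CM and abundant in TGF_KD_CM. Of 30 listed effectors 26 were tested, and 25 of them rose, against 21.2% of all genes; 22 rose at least 2-fold, against 4.57%. None of the 26 fell, and their median was 3.57 on the log2 scale, against -0.003 for all genes. Of the other listed effectors, Mx1 and Mx2 were not analysed here, and Ifi44l and Cmpk2 were too scarce to be tested. Cmpk2 had 8, 5 and 9 counts in VEC_CM and 2, 4 and 5 in TGF_KD_CM. The largest rise of the whole contrast among genes of at least 4 CPM was that of Ifi44, an interferon-induced cytoplasmic protein (chromosome 3, 151730922 to 151749910, NCBI gene 99899; positions from RefSeq, GRCm38). Ifi44 was at 0.272, 0.410 and 0.493 CPM in VEC_CM, 1.43, 1.41 and 0.977 CPM in TGF_VEC_CM and 126, 128 and 129.8 CPM in TGF_KD_CM. The TGF_KD_CM libraries lay far above every other library shown, and the gene rose 324-fold over VEC_CM (log2 8.34 ± 0.1 SE; edgeR adjusted p = 1.34e-61). Usp18 encodes the protease that strips ISG15 from proteins and dampens the interferon receptor. Its level was 0.626, 0.710 and 0.438 CPM in VEC_CM, 2.75, 2.52 and 2.93 CPM in TGF_VEC_CM and 79.9, 83.7 and 80.7 CPM in TGF_KD_CM, a rise of 7.10 ± 0.11 on the log2 scale (edgeR adjusted p = 9.47e-56). Isg15 itself, the ubiquitin-like modifier, was at 1.36, 1.04 and 1.09 CPM in VEC_CM, 1.04, 1.06 and 1.14 CPM in TGF_VEC_CM and 49.1, 56.4 and 54.3 CPM in TGF_KD_CM. Its VEC_CM and TGF_VEC_CM libraries overlapped, and TGF_KD_CM stood 45.6-fold above VEC_CM (edgeR adjusted p = 4.31e-11).

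The 5 listed genes of the oligoadenylate synthase family, whose enzymes sense double-stranded RNA, each rose. Oas2 was at 0.381, 0.601 and 0.903 CPM in VEC_CM, 1.24, 2.06 and 1.52 CPM in TGF_VEC_CM and 84.2, 84.5 and 90.2 CPM in TGF_KD_CM, a rise of 7.09 ± 0.19 on the log2 scale. For Oas1a, Oas3, Oasl1 and Oasl2 the log2 changes were 3.54, 4.94, 3.61 and 6.22. Bst2, the tether that holds budding virions at the cell surface, was expressed in all groups. Its values were 23.4, 21.8 and 23.9 CPM in VEC_CM, 42.4, 45.7 and 44.2 CPM in TGF_VEC_CM and 275, 289 and 288 CPM in TGF_KD_CM. The 3 groups did not overlap, and Bst2 was 12.3-fold higher in TGF_KD_CM than in VEC_CM (log2 3.62 ± 0.043; edgeR adjusted p = 1.09e-60). Xaf1, an antagonist of inhibitors of apoptosis, rose by 6.14, and Apol9b, an interferon-induced apolipoprotein L gene, by 6.59 on the log2 scale. The smallest rises of the list belonged to Samhd1, which hydrolyses nucleotides, at 0.21 ± 0.03, and Ifit2, a binder of foreign RNA, at 0.55 ± 0.067. Rsad2, the antiviral enzyme viperin, was at 2.67, 2.35 and 2.11 CPM in VEC_CM, 0.927, 0.947 and 0.461 CPM in TGF_VEC_CM and 3.85, 4.99 and 3.84 CPM in TGF_KD_CM, and its change of 0.83 ± 0.53 on the log2 scale did not pass the test (edgeR adjusted p = 0.261). In a fit of the 6 libraries alone the same change passed (edgeR adjusted p = 0.000119). Counts of Ifit1, Ifit3, Oas1a, Oasl2, Apol9b, Irgm2 and Ifitm3 are uncertain, because these genes have near-identical relatives whose reads the authors' counting may have split.

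Promoters of 4 of these effectors are shown because each holds the core of the interferon response element on one of its strands. The core was searched as the letters GAAA, then NN (any base), then GAAA again. Each line gives the 250 bases before the RefSeq start on GRCm38, read in the direction of transcription, with every base of a match in capitals. Isg15 lies on the minus strand of chromosome 4 (chr4:156200819-156201068), Bst2 on the minus strand of chromosome 8 (chr8:71537473-71537722), Oas1a on the minus strand of chromosome 5 (chr5:120907526-120907775) and Ifit3 on the plus strand of chromosome 19 (chr19:34583279-34583528).
Isg15: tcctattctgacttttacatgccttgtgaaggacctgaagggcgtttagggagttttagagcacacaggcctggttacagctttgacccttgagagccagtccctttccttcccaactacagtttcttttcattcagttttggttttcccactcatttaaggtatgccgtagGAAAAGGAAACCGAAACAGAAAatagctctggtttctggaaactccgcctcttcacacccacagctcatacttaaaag
Bst2: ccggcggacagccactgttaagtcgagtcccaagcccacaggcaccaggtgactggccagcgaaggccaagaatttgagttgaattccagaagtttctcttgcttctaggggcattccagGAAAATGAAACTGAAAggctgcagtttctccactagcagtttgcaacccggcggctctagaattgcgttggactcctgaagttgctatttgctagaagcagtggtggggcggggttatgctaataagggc
Oas1a: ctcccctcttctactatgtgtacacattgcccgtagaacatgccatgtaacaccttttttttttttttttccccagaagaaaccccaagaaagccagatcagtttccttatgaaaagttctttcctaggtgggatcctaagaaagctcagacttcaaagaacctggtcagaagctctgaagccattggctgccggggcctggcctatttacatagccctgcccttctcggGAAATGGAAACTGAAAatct
Ifit3: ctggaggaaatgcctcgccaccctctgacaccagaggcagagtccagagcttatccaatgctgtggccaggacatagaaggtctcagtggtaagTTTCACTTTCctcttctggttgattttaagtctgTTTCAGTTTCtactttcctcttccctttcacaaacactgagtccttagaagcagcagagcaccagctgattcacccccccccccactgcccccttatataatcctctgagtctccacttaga
In Isg15 the matches begin 78, 72 and 66 bases before the start and overlap, in Bst2 130 and 124, and in Oas1a 20 and 14. Those of Ifit3 begin 156 and 122 bases before the start and read TTTC on the strand shown. Searched on both strands of RefSeq windows of 300 bases (250 before and 50 after the start), the core was found in 10 of the 20 effectors that have a window (50%). It was found in 425 of 11157 tested genes with a window (3.81%) and in 1079 of all 27025 genes with one (3.99%). The STAT motif TTCNNNGAA was found in 7 of the 20 (35.0%), against 8.51% of the tested genes. The palindromic SMAD motif GTCTAGAC was found in 0 of the 20 and in 1 of 12 TGF-beta feedback and response genes with a window, against 0.26% of the tested genes. Ifi44, Xaf1 and Oasl2 rose more than Bst2 and have no match to the GAAA core in their windows. A match describes letters and is not evidence of binding.

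**Figure D2:**
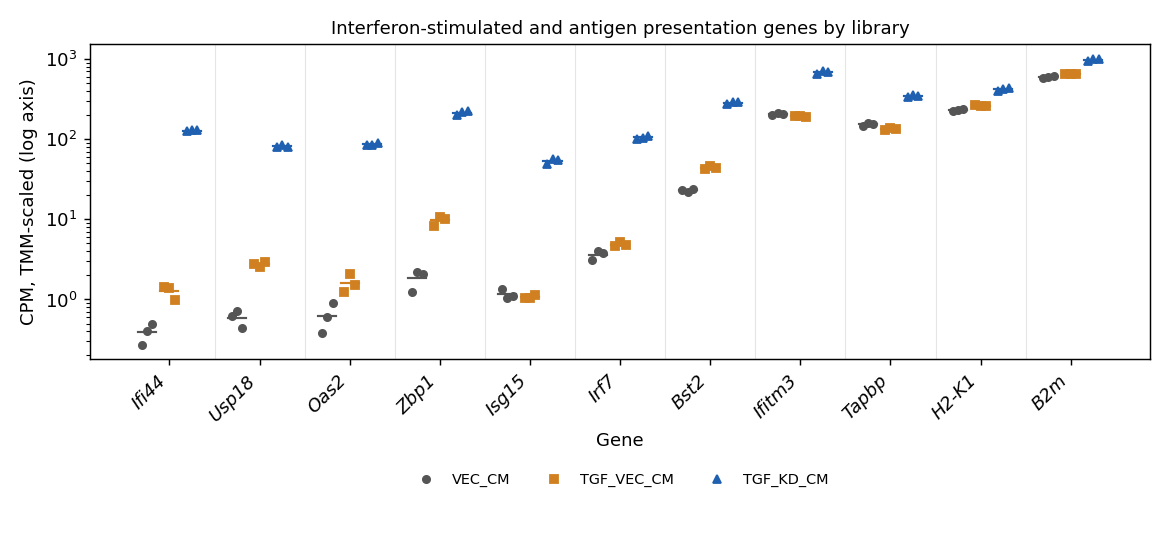
Level of 11 interferon-stimulated, interferon signalling and antigen presentation genes in each library of VEC_CM (grey circles), TGF_VEC_CM (orange squares) and TGF_KD_CM (blue triangles), in TMM-scaled CPM on a log axis, with a bar at the group mean. In each of the 11 genes the 3 TGF_KD_CM libraries lie above all 6 others, from 0.392 to 128 CPM for Ifi44 and from 597 to 986 CPM for B2m.

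Among sensors of foreign nucleic acid and carriers of the interferon signal, 11 of 22 tested genes rose (21.2% of all genes did), 9 of them at least 2-fold (4.57%), and 3 fell (20.4%). The median was 0.28 on the log2 scale, and the remaining 8 did not pass the test. Zbp1, a sensor of Z-form nucleic acids that can trigger necroptosis, was at 1.84 ± 0.533 CPM in VEC_CM, 9.68 ± 1.18 in TGF_VEC_CM and 214 ± 13.3 in TGF_KD_CM (SD, n = 3). Its 3 groups did not overlap, and it rose by 6.86 ± 0.14 on the log2 scale over VEC_CM. The RNA sensor genes Rigi, Ifih1 and Dhx58 rose by 3.99, 4.46 and 3.97. Mavs, the mitochondrial adaptor of those sensors, fell by a factor of 1.15 (log2 -0.21 ± 0.048). The DNA sensor gene Cgas and its partner Sting1 did not pass the test, at log2 0.13 ± 0.092 and -0.08 ± 0.081. Irf7, the factor that amplifies interferon production, was at 3.08, 3.99 and 3.75 CPM in VEC_CM, 4.58, 5.20 and 4.75 CPM in TGF_VEC_CM and 99.9, 105 and 111 CPM in TGF_KD_CM. VEC_CM and TGF_VEC_CM lay close together for Irf7, and TGF_KD_CM stood 29.1-fold above VEC_CM (edgeR adjusted p = 1.25e-09). Of the complex that binds the response element, Irf9 rose by 3.14 and Stat2 by 1.51 on the log2 scale. Of the chains of the type I interferon receptor, Ifnar1 was at the vector level (log2 -0.06 ± 0.038) and Ifnar2 rose by 0.46. Socs3, a feedback inhibitor of cytokine receptors, fell by a factor of 1.49, with TGF_VEC_CM at 29.2 ± 2.21 and TGF_KD_CM at 27.9 ± 1.03 CPM (SD, n = 3).

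Antigen presentation by MHC class I, which displays peptides from inside the cell, rose by smaller factors from higher levels. Of 16 tested genes 13 rose and 2 fell, against 21.2% and 20.4% of all genes, with a median of 0.70 on the log2 scale. B2m, the light chain of MHC class I, was at 578, 599.6 and 612 CPM in VEC_CM, 658, 645 and 651 CPM in TGF_VEC_CM and 949.5, 997 and 1011 CPM in TGF_KD_CM, a rise of 1.65-fold (log2 0.72 ± 0.024; edgeR adjusted p = 1.97e-36). The heavy chain gene H2-K1 rose by 0.87 on the log2 scale, a count that close relatives make uncertain, the peptide transporter gene Tap1 by 0.95 and the immunoproteasome subunits Psmb8 and Psmb9 by 1.21 and 1.24. Tapbp, the chaperone that loads peptides, was at 147, 159 and 153 CPM in VEC_CM, 131, 136 and 136 CPM in TGF_VEC_CM and 335, 356 and 342 CPM in TGF_KD_CM. It was higher than VEC_CM in TGF_KD_CM by 2.25-fold, while TGF_VEC_CM stood at -0.19 on the log2 scale from VEC_CM. Both members that fell, Calr and Pdia3, are general folding factors of the endoplasmic reticulum and changed by -0.12 and -0.11 on the log2 scale.

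Sterol synthesis fell almost throughout. Of 20 tested genes 19 were lower in TGF_KD_CM, 16 of them at least 2-fold, against 20.4% and 1.33% of all genes, and the median was -1.27 on the log2 scale. Insig1 (chromosome 5, 28071412 to 28078662, NCBI gene 231070), which retains the SREBP complex in the endoplasmic reticulum and is itself an SREBP target, was at 125, 136 and 117 CPM in VEC_CM, 12.2, 13.4 and 12.9 CPM in TGF_VEC_CM and 24.3, 22.6 and 24.6 CPM in TGF_KD_CM. The 3 groups did not overlap; TGF_KD_CM was 5.28-fold below VEC_CM (log2 -2.40 ± 0.047; edgeR adjusted p = 2.50e-45) and above TGF_VEC_CM by 0.89 ± 0.06 on the log2 scale (edgeR adjusted p = 4.65e-19). Srebf2, the gene of the regulator, was at 299, 305 and 298 CPM in VEC_CM, 86.3, 89.0 and 86.5 CPM in TGF_VEC_CM and 125, 122 and 118 CPM in TGF_KD_CM. It lay 2.47-fold below VEC_CM and above TGF_VEC_CM by 0.48 on the log2 scale.

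The enzymes were lower from early steps of the pathway to late ones. Hmgcs1, an early enzyme of the pathway, changed by -1.38 on the log2 scale, Idi1 and Fdps of the isoprenoid steps by -1.55 and -1.82, and Sqle and Lss, which form lanosterol, by -1.24 and -1.40. Cyp51 and Msmo1, which demethylate it, changed by -1.62 and -2.16. Fdps was at 121, 133 and 126 CPM in VEC_CM, 26.1, 27.8 and 25.4 CPM in TGF_VEC_CM and 35.9, 34.6 and 37.3 CPM in TGF_KD_CM. As for Insig1, the TGF_KD_CM values of Fdps lay between those of the other groups and far nearer to TGF_VEC_CM. For Sqle and Idi1 the difference between TGF_KD_CM and TGF_VEC_CM did not pass the test (log2 -0.07 ± 0.04 and 0.02 ± 0.075). Over the list, all 20 genes were below VEC_CM in TGF_VEC_CM, and 12 were higher and 3 lower in TGF_KD_CM than in TGF_VEC_CM, against backgrounds of 29.4%, 23% and 20.2%. Ebp, a sterol isomerase gene, was the exception in TGF_KD_CM, at 0.23 ± 0.037 on the log2 scale over VEC_CM, with 85.9 ± 2.30 CPM in VEC_CM, 72.0 ± 3.03 in TGF_VEC_CM and 101 ± 5.27 in TGF_KD_CM (SD, n = 3). Scd2, a fatty acid desaturase gene outside the list, was also among the 10 largest falls, at log2 -1.81 ± 0.065.

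**Figure D3:**
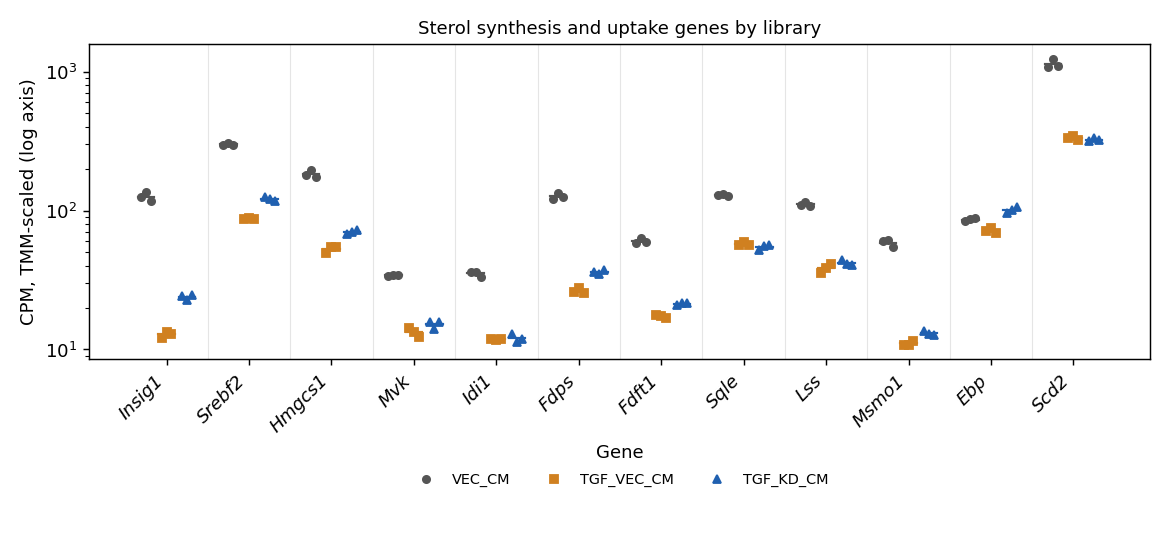
Level of genes of sterol synthesis and uptake, and of the desaturase gene Scd2, in each library of VEC_CM (grey circles), TGF_VEC_CM (orange squares) and TGF_KD_CM (blue triangles), in TMM-scaled CPM on a log axis, with a bar at the group mean. TGF_KD_CM lies below VEC_CM, with Ebp as the exception. For Insig1 the means are 126 CPM in VEC_CM, 12.8 in TGF_VEC_CM and 23.9 in TGF_KD_CM, so TGF_KD_CM lies between the other groups.

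Most tested genes of TGF-beta feedback and response were higher than in VEC_CM by the edgeR test, by different margins. Of 21 tested feedback and response genes 15 were higher in TGF_KD_CM than in VEC_CM and 1 was lower, against 21.2% and 20.4% of all genes, with a median of 0.35 on the log2 scale. When a difference of at least 1.2-fold was required (edgeR glmTreat), 10 of the 21 were higher, against 7.78% of all genes. At the vector level by the interval were 4 of the 21, against 41.7%. In TGF_VEC_CM 13 of the 21 were higher than in VEC_CM and 3 lower, against 28.9% and 29.4%. Skil, a repressor of SMAD-driven transcription, was at 53.6, 55.3 and 51.0 CPM in VEC_CM, 111, 113 and 119 CPM in TGF_VEC_CM and 104, 99.6 and 104 CPM in TGF_KD_CM. Both TGF-beta1 groups lay well above VEC_CM, and Skil was 1.92-fold higher in TGF_KD_CM (log2 0.94 ± 0.036; edgeR adjusted p = 5.74e-33). Smad7, the inhibitory SMAD, was at 10.5, 10.5 and 9.99 CPM in VEC_CM, 24.4, 21.7 and 24.4 CPM in TGF_VEC_CM and 14.0, 13.8 and 13.9 CPM in TGF_KD_CM. It was 1.35-fold above VEC_CM (log2 0.43 ± 0.077; edgeR adjusted p = 3.76e-06) and stood at -0.76 ± 0.07 on the log2 scale from TGF_VEC_CM. Ccn4, a matricellular protein gene, and Klf10, an early TGF-beta target, were as high in TGF_KD_CM as in TGF_VEC_CM or nearly so. Ccn4 rose by 0.85 over VEC_CM and by 0.09 over TGF_VEC_CM, and Klf10 by 0.50 over VEC_CM, with -0.01 ± 0.03 against TGF_VEC_CM. Pmepa1, another inhibitor of the pathway, rose from 0.155 ± 0.0155 to 1.49 ± 0.271 CPM (SD, n = 3), with 1.44 ± 0.446 CPM in TGF_VEC_CM.

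Of the ligands, receptors and SMADs 4 of 15 tested genes were higher and 5 lower, against 21.2% and 20.4% of all genes, and the median was 0.003 on the log2 scale. Tgfb1 was at 43.5, 42.3 and 43.7 CPM in VEC_CM, 45.7, 45.8 and 44.9 CPM in TGF_VEC_CM and 46.1, 44.9 and 44.8 CPM in TGF_KD_CM. The TGF_KD_CM libraries lay just above VEC_CM and overlapped TGF_VEC_CM, and the difference from VEC_CM did not pass the test (log2 0.07 ± 0.048; edgeR adjusted p = 0.268). Fstl3, a secreted trap for activin, rose by 1.72 ± 0.044 on the log2 scale, and Eng, a co-receptor, by 0.47. Tgfbr1, the type I receptor, changed by -0.32 on the log2 scale from VEC_CM and stood above TGF_VEC_CM by 0.52. Inhba, an activin chain, was scarce and changed by -0.97.

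The Id genes, targets of BMP signalling that hold back differentiation, were lower in TGF_KD_CM than in either other group. In the BMP and Id list 5 of 11 tested genes fell and 1 rose, against 20.4% and 21.2% of all genes, and the median was -0.048 on the log2 scale. Id1 was at 67.5, 78.5 and 77.1 CPM in VEC_CM, 78.2, 81.2 and 79.2 CPM in TGF_VEC_CM and 36.3, 42.8 and 35.7 CPM in TGF_KD_CM. VEC_CM and TGF_VEC_CM overlapped for Id1, and TGF_KD_CM lay 1.94-fold below VEC_CM (log2 -0.96 ± 0.057; edgeR adjusted p = 1.31e-15). Id2 was at 30.0, 28.8 and 30.2 CPM in VEC_CM, 21.1, 22.8 and 20.3 CPM in TGF_VEC_CM and 10.5, 10.1 and 8.75 CPM in TGF_KD_CM, with all 3 groups apart and a change of -1.60 ± 0.076 on the log2 scale. Id3 changed by -0.96 ± 0.061. Bmpr2, the type II BMP receptor, was the member that rose (log2 0.25).

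Several feedback genes of the ERK kinase pathway were lower in TGF_KD_CM than in both other groups as well. Among immediate early and ERK feedback genes 13 of 25 tested were lower and 5 higher, against 20.4% and 21.2% of all genes, with a median of -0.20 on the log2 scale. Spry4, an inhibitor of receptor tyrosine kinase signalling, was at 11.8, 10.8 and 10.1 CPM in VEC_CM, 6.77, 8.61 and 7.44 CPM in TGF_VEC_CM and 2.28, 2.22 and 2.41 CPM in TGF_KD_CM. TGF_KD_CM was below every library of the other groups, 4.71-fold under VEC_CM (log2 -2.24 ± 0.13; edgeR adjusted p = 1.09e-23). Etv5, a transcription factor that ERK activity induces, was at 43.6, 42.4 and 42.5 CPM in VEC_CM, 31.3, 32.7 and 34.4 CPM in TGF_VEC_CM and 9.81, 8.85 and 9.04 CPM in TGF_KD_CM. It lay 4.64-fold below VEC_CM and changed by -1.83 ± 0.066 on the log2 scale from TGF_VEC_CM (edgeR adjusted p = 2.70e-34). Dusp6, the phosphatase that switches ERK off, was at 18.8, 18.4 and 18.2 CPM in VEC_CM, 14.3, 15.9 and 15.0 CPM in TGF_VEC_CM and 6.24, 5.81 and 5.18 CPM in TGF_KD_CM, a change of -1.68 ± 0.09. The related Etv4 and Spry2 changed by -0.94 and -0.64. Against TGF_VEC_CM 19 of the 25 genes were lower and 1 higher, against 20.2% and 23% of all genes, while in TGF_VEC_CM 11 were higher and 4 lower than in VEC_CM, against 28.9% and 29.4%. The AP-1 genes went the other way in part: Junb rose by 0.63 and Fosl2 by 0.31, while Fosl1 changed by -0.30 on the log2 scale. When a difference of at least 1.2-fold was required by the test (edgeR glmTreat), 7 of the 25 genes were lower, against 3.85% of all genes.

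**Figure D4:**
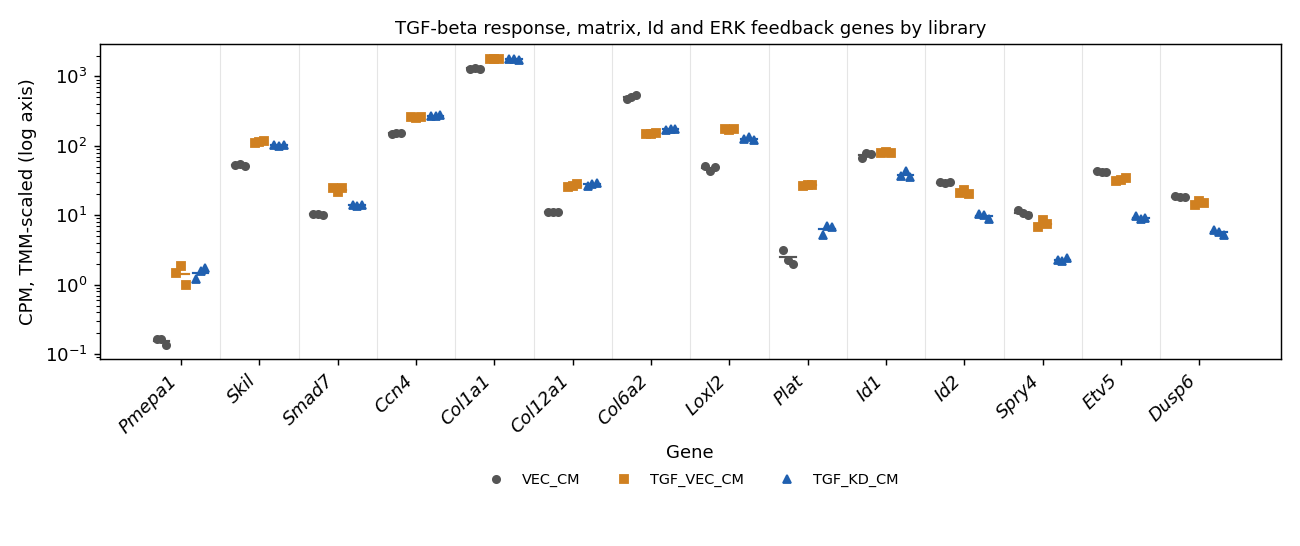
Level of TGF-beta response, matrix, Id and ERK feedback genes in each library of VEC_CM (grey circles), TGF_VEC_CM (orange squares) and TGF_KD_CM (blue triangles), in TMM-scaled CPM on a log axis, with a bar at the group mean. Smad7 in TGF_KD_CM (13.9 CPM) lies between VEC_CM (10.3) and TGF_VEC_CM (23.5), whereas Id2, Etv5, Spry4 and Dusp6 are lowest in TGF_KD_CM.

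Matrix genes changed in both directions. Among fibrillar collagens and matrix proteins 15 of 27 tested genes were higher and 9 lower, against 21.2% and 20.4% of all genes, with a median of 0.16 on the log2 scale; 7 were higher when a difference of at least 1.2-fold was required (edgeR glmTreat), against 7.78% of all genes. Col1a1, a chain of type I collagen, was at 1294, 1325 and 1289 CPM in VEC_CM, 1757, 1800.5 and 1801 CPM in TGF_VEC_CM and 1798, 1803 and 1719 CPM in TGF_KD_CM. Both TGF-beta1 groups lay above VEC_CM and overlapped each other, and Col1a1 was 1.36-fold higher in TGF_KD_CM (log2 0.45 ± 0.022; edgeR adjusted p = 8.09e-27). Col1a2, Col3a1 and the fibronectin gene Fn1 rose by 0.15, 0.33 and 0.14 on the log2 scale, and Col5a2 by 0.51. The intervals of Col1a2 and Fn1 lay within 1.2-fold, so both were also at the vector level. Col12a1, which coats collagen fibrils, rose by 1.31 from a low level. The type VI collagen genes fell. Col6a2 was at 473, 504 and 538 CPM in VEC_CM, 146, 149.5 and 153 CPM in TGF_VEC_CM and 171, 176 and 175 CPM in TGF_KD_CM, 2.90-fold below VEC_CM (log2 -1.54 ± 0.032), and Col6a1 changed by -1.39 and Col6a3 by -0.30. Spp1, the gene of the secreted protein osteopontin, changed by -0.89 ± 0.03. Postn, often used as a myofibroblast marker, was scarce, at 1.02 ± 0.0593 CPM in VEC_CM and 2.18 ± 0.318 CPM in TGF_KD_CM (SD, n = 3; log2 1.09 ± 0.24).

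Collagen processing genes rose in 12 of 21 cases and fell in 4, against 21.2% and 20.4% of all genes, with a median of 0.20 on the log2 scale. Loxl2, which crosslinks collagen, was at 50.6, 43.4 and 48.9 CPM in VEC_CM, 173, 171 and 174 CPM in TGF_VEC_CM and 127, 133 and 121 CPM in TGF_KD_CM. Its groups did not overlap, and it was 2.67-fold above VEC_CM (log2 1.42 ± 0.041) and -0.45 on the log2 scale from TGF_VEC_CM. Tgm2, a transglutaminase, rose by 1.26 ± 0.03, while Loxl3 changed by -0.71 and Crtap, part of the collagen prolyl hydroxylase complex, by -0.30. In the basement membrane and integrin list 11 of 20 rose and 5 fell (same backgrounds), with a median of 0.21. Lamb3, a laminin chain, was at 0.708, 0.273 and 0.137 CPM in VEC_CM, 35.7, 33.1 and 42.6 CPM in TGF_VEC_CM and 7.81, 6.89 and 7.84 CPM in TGF_KD_CM. It was nearly absent in VEC_CM and rose by 4.32 ± 0.26 on the log2 scale, to a level -2.30 from TGF_VEC_CM. Itga7, a laminin receptor chain, rose by 1.00 and Lama5 by 0.59. Itga3, also a laminin receptor chain, was at 64.1, 71.5 and 74.5 CPM in VEC_CM, 64.3, 64.5 and 64.7 CPM in TGF_VEC_CM and 37.0, 36.8 and 33.4 CPM in TGF_KD_CM. VEC_CM and TGF_VEC_CM were close for Itga3, and TGF_KD_CM was 1.96-fold below VEC_CM. Among proteases and their inhibitors 8 of 18 rose and 5 fell, again against 21.2% and 20.4%. Plat, the tissue plasminogen activator gene, was at 3.19, 2.29 and 1.97 CPM in VEC_CM, 26.8, 27.6 and 27.7 CPM in TGF_VEC_CM and 5.21, 6.92 and 6.71 CPM in TGF_KD_CM, 2.52-fold above VEC_CM but changed by -2.12 ± 0.099 on the log2 scale from TGF_VEC_CM. Timp1 rose by 0.46 and Timp2 changed by -0.52.

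Of 17 tested contractile genes 6 were higher, 6 lower and 8 at the vector level, against 21.2%, 20.4% and 41.7% of all genes, with a median of -0.052 on the log2 scale. Cald1 and Pdlim7, which bind actin filaments, rose by 0.64 and 0.67, and Mylk, the kinase of the myosin light chain, changed by -0.67. Acta2, the actin that marks myofibroblasts, was measured at 0.517, 0.519 and 0.739 CPM in VEC_CM, 0.450, 0.271 and 0.407 CPM in TGF_VEC_CM and 0.190, 0.271 and 0.483 CPM in TGF_KD_CM. It was scarce in every library, lower in each TGF_KD_CM library than in each VEC_CM library, and did not pass the test (log2 -0.90 ± 0.44; edgeR adjusted p = 0.0944). Leaving out TGF_KD_CM replicate 3 brought Acta2 past the threshold (log2 -1.35, edgeR adjusted p = 0.0408). Tagln and Ccn2 were too scarce to be tested. Among markers of resting fibroblasts 6 of 12 rose and 3 fell, against 21.2% and 20.4%, with a median of 0.16. Those that fell were Igfbp6, Ly6c1 and Scara5, which changed by -0.57, -0.53 and -0.43 on the log2 scale. Cd34, Dpp4, Clec3b, Igfbp3 and Sfrp2 of the same list were too scarce to be tested. Dpt, a small matrix protein gene, was at 8.96, 10.9 and 9.36 CPM in VEC_CM, 10.1, 11.4 and 10.5 CPM in TGF_VEC_CM and 33.7, 33.6 and 37.9 CPM in TGF_KD_CM. VEC_CM and TGF_VEC_CM overlapped for Dpt, and TGF_KD_CM was 3.60-fold above VEC_CM (log2 1.85 ± 0.072). Ly6a, which encodes the surface protein Sca-1 and whose count close relatives make uncertain, was at 84.6, 88.1 and 95.3 CPM in VEC_CM, 33.1, 39.8 and 38.9 CPM in TGF_VEC_CM and 111, 109 and 107 CPM in TGF_KD_CM. It was lowest in TGF_VEC_CM and in TGF_KD_CM stood 1.22-fold above VEC_CM (edgeR adjusted p = 1.61e-06).

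Cytokine genes rose in 14 of 20 cases and fell in 4, against 21.2% and 20.4% of all genes, with a median of 0.51 on the log2 scale. Ccl2, which recruits monocytes, was at 484, 488 and 513 CPM in VEC_CM, 804, 748 and 800.4 CPM in TGF_VEC_CM and 987, 1027 and 1080.2 CPM in TGF_KD_CM. It rose from VEC_CM through TGF_VEC_CM to TGF_KD_CM with no overlap, 2.08-fold above VEC_CM (log2 1.06 ± 0.03; edgeR adjusted p = 1.11e-22). The neighbouring chemokine gene Ccl7 rose by 1.00. Lif, a cytokine of the interleukin-6 family, rose by 1.06, to a level -0.64 on the log2 scale from TGF_VEC_CM. Cxcl10, a chemokine that interferon induces, rose from 0.864 ± 0.464 to 5.72 ± 0.791 CPM (SD, n = 3; log2 2.72 ± 0.29). Il6 was at 2.34, 3.69 and 2.93 CPM in VEC_CM, 2.39, 2.71 and 2.82 CPM in TGF_VEC_CM and 3.20, 2.90 and 3.38 CPM in TGF_KD_CM. It was scarce, its VEC_CM libraries overlapped both other groups, and it did not pass the test (log2 0.08 ± 0.19; edgeR adjusted p = 0.765).

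Genes of fatty acid use moved in both directions, most by small amounts. Of 23 tested genes 7 rose, 9 fell and 9 were at the vector level, against 21.2%, 20.4% and 41.7% of all genes, with a median of -0.081 on the log2 scale. Pparg, the nuclear receptor that drives fat storage, was at 127, 121 and 124 CPM in VEC_CM, 88.7, 93.8 and 91.2 CPM in TGF_VEC_CM and 102, 106 and 107 CPM in TGF_KD_CM. Its groups did not overlap; TGF_KD_CM lay between the other groups, 1.18-fold below VEC_CM (log2 -0.24 ± 0.033; edgeR adjusted p = 6.79e-09) and above TGF_VEC_CM by 0.20 ± 0.034. Lpl, the lipoprotein lipase gene, was at 658, 689 and 699 CPM in VEC_CM, 421, 424 and 438 CPM in TGF_VEC_CM and 581, 584 and 588 CPM in TGF_KD_CM, with the same order and a change of -0.22 ± 0.024 from VEC_CM. Fabp4, a fatty acid carrier that also dominates the adipocyte marker sum, changed by -0.91 ± 0.03. Pdk4, which slows the use of glucose, rose by 1.24. Receptors of insulin-like and adipocyte signals rose in 8 of 20 cases and fell in 8 (same backgrounds), with a median of 0.021; the fibroblast growth factor receptor Fgfr1 rose by 0.46 and the binding protein Igfbp4 changed by -0.46.

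Lists for housekeeping functions held many small differences; over all genes 21.2% were higher, 20.4% lower and 41.7% at the vector level. Of 35 genes of DNA replication and mitosis 30 were lower and 2 higher, and 21 of the 35 were at the vector level; the median was -0.18 on the log2 scale. Mcm5, a subunit of the replicative helicase, was at 319.6, 328 and 327 CPM in VEC_CM, 201, 204 and 199 CPM in TGF_VEC_CM and 239.9, 241 and 239 CPM in TGF_KD_CM, a change of -0.44 ± 0.025, and Mcm4 and Mcm7 changed by -0.40 and -0.38. When a difference of at least 1.2-fold was required (edgeR glmTreat), 7 of the 35 were lower, against 3.85% of all genes. Of 22 nuclear genes of oxidative phosphorylation 14 were lower and 0 higher by the edgeR test, but 21 were at the vector level, with a median of -0.088. Mitochondrial messenger RNA took 2.23 to 2.29% of counts in VEC_CM and 2.06 to 2.08% in TGF_KD_CM. In the hypoxia and glycolysis list 17 of 24 rose, 4 fell and 12 were at the vector level; Vegfa, the angiogenic growth factor, rose by 0.80 ± 0.033, while Gapdh did not pass the test (0.06 ± 0.049). Among ATF4 targets 13 of 22 rose, 3 fell and 10 were at the vector level, with a median of 0.19 on the log2 scale. The largest rise among them was that of Ddit4, an inhibitor of mTOR signalling, at 0.98. Of 21 NRF2 and glutathione genes 4 rose, 12 fell and 11 were at the vector level, with a median of -0.12 on the log2 scale. Those that fell included Gstm1 and the ferritin gene Fth1, whose counts close copies make uncertain (log2 -0.60 and -0.57).

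For some genes of the endoplasmic reticulum and the lysosome, TGF_VEC_CM stood apart from both other groups. Of 19 chaperone genes of the endoplasmic reticulum 10 rose, 6 fell and 10 were at the vector level, against 21.2%, 20.4% and 41.7% of all genes. Hspa5, the main chaperone of the compartment, was at 1722, 1786 and 1854 CPM in VEC_CM, 2955, 3003 and 3190.0 CPM in TGF_VEC_CM and 1871, 2039 and 2079 CPM in TGF_KD_CM. Its TGF_KD_CM libraries lay just above VEC_CM, by 0.16 ± 0.052 on the log2 scale (edgeR adjusted p = 0.037, and 0.0889 to 0.124 without TGF_KD_CM replicate 2 or 3 or VEC_CM replicate 1 or 2), and -0.61 ± 0.052 from TGF_VEC_CM. Of 24 lysosome genes 15 rose, 3 fell and 14 were at the vector level, with the same backgrounds. Gpnmb, a glycoprotein of lysosomes and melanosomes, was at 1170.4, 1145 and 1194 CPM in VEC_CM, 614, 578 and 614 CPM in TGF_VEC_CM and 1163, 1130.4 and 1160.0 CPM in TGF_KD_CM. VEC_CM and TGF_KD_CM overlapped for Gpnmb (log2 -0.02 ± 0.024, within 1.2-fold by its interval), and TGF_KD_CM was above TGF_VEC_CM by 0.94 ± 0.024. Ctsl, a cathepsin gene, kept its distance from VEC_CM instead, at 0.75 on the log2 scale, with TGF_VEC_CM at 0.64.

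Genes were then sorted by where they stood in both TGF-beta1 groups. Both comparisons use the same VEC_CM libraries, so the counts describe these libraries and carry no test. In TGF_VEC_CM 1047 genes were at least 2-fold above VEC_CM (7.27% of genes tested) and 282 at least 2-fold below (1.96%). Of the 1047, 477 (45.6%, or 3.31% of genes tested) were still at least 2-fold higher in TGF_KD_CM, 161 (15.4%) were higher by less than 2-fold, 407 (38.9%) did not pass the test and 2 were lower. Of the 282, 90 (31.9%, or 0.625% of genes tested) were still at least 2-fold lower, 86 (30.5%) were lower by less, 97 (34.4%) did not pass and 9 (3.19%) were higher. The largest changes among the 477 were those of Ifi44, Usp18, Oas2, Zbp1, Apol9b and Xaf1, in which TGF_KD_CM lay far beyond TGF_VEC_CM: for Apol9b, 1.45 ± 0.352 CPM in VEC_CM, 12.8 ± 1.23 in TGF_VEC_CM and 140.0 ± 2.38 in TGF_KD_CM (SD, n = 3). Among the 90, large changes were those of Insig1, Msmo1 and Fdps, given above, of Ptprf, a receptor tyrosine phosphatase gene, and of Nhsl2. Ptprf was at 10.5, 10.9 and 9.69 CPM in VEC_CM, 4.10, 3.84 and 3.61 CPM in TGF_VEC_CM and 2.11, 2.06 and 1.23 CPM in TGF_KD_CM, with all 3 groups apart and TGF_KD_CM the lowest (log2 -2.52 ± 0.17 from VEC_CM; edgeR adjusted p = 4.79e-21). A gene that did not pass the test is not thereby at the vector level, because scarce genes have wide intervals. Genes near 0 in VEC_CM could enter the filter through the groups where they were high, and could hardly be called lower. The counts held above and held below are therefore not alike in what they could contain. With 1 CPM required in 3 libraries, 304 genes were held above and 67 below.

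By the narrower rule, an interval within 1.2-fold of VEC_CM, 1 of the 1047 genes and 3 of the 282 were back (0.00694% and 0.0208% of genes tested). In this fit no gene with a mean below 4 CPM met the interval. The counts therefore do not show how many scarce genes were back. With a margin of 1.5-fold, chosen after seeing the data, 15 and 28 genes were back. Rnd1, a small GTPase that loosens the actin skeleton, was at 16.2, 16.2 and 15.9 CPM in VEC_CM, 33.3, 32.6 and 34.6 CPM in TGF_VEC_CM and 17.9, 16.5 and 17.0 CPM in TGF_KD_CM (log2 0.09, interval -0.05 to 0.23). Its TGF_KD_CM libraries lay above VEC_CM by less than the 1.2-fold margin. Cp, the copper oxidase ceruloplasmin, was at 39.2, 38.3 and 37.6 CPM in VEC_CM, 15.5, 12.5 and 15.0 CPM in TGF_VEC_CM and 40.9, 39.8 and 41.1 CPM in TGF_KD_CM (log2 0.08, interval -0.05 to 0.21), and the calcium pump gene Atp2a3 at 53.3, 53.6 and 52.2 CPM in VEC_CM, 18.2, 19.1 and 20.7 CPM in TGF_VEC_CM and 47.8, 50.6 and 49.5 CPM in TGF_KD_CM (log2 -0.10, interval -0.20 to -0.01). For both, TGF_VEC_CM was far below the other groups. Ssc5d, a secreted scavenger receptor, was the remaining such gene (log2 -0.10, interval -0.23 to 0.04). Without TGF_KD_CM replicate 2 the count back from above was 0 in place of 1, and without VEC_CM replicate 1 it was 2.

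Past the vector level, with differences from VEC_CM of at least 1.5-fold in opposite directions, were 8 genes that TGF_VEC_CM held below and TGF_KD_CM above (0.0556% of genes tested), and 1 gene the other way (0.00694%). Iigp1c, Gbp6, Ifi204, Ifi207, Erap1 and Nmi among the 8 are known interferon-induced genes, and Clec2d and Sorcs2 complete them. Erap1, which trims peptides for MHC class I, was at 30.6, 33.6 and 33.4 CPM in VEC_CM, 14.3, 13.9 and 14.9 CPM in TGF_VEC_CM and 49.1, 53.6 and 52.7 CPM in TGF_KD_CM. Its groups did not overlap, with log2 -1.18 ± 0.062 in TGF_VEC_CM and 0.67 ± 0.054 in TGF_KD_CM. Ifi204, a sensor of DNA whose count close relatives make uncertain, was at 105, 108 and 104 CPM in VEC_CM, 55.7, 63.3 and 60.8 CPM in TGF_VEC_CM and 157, 178 and 172 CPM in TGF_KD_CM. Fut7, a fucosyltransferase gene, was the single gene above VEC_CM in TGF_VEC_CM and below it in TGF_KD_CM. It was scarce, at 0.837 ± 0.166 CPM in VEC_CM, 1.76 ± 0.217 in TGF_VEC_CM and 0.450 ± 0.0143 in TGF_KD_CM (SD, n = 3). Its change from VEC_CM was log2 -0.89 ± 0.36 (edgeR adjusted p = 0.0381). When any library but VEC_CM replicate 2 was left out, its edgeR adjusted p was 0.0773 to 0.14, so Fut7 left the class. The count of such genes was 2 without TGF_KD_CM replicate 2, 0 without VEC_CM replicate 3 and 1 without each other library. Members of the class thus changed between fits.

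A further 16 genes (0.111% of genes tested) were at least 2-fold higher in TGF_KD_CM and within 1.2-fold of VEC_CM in TGF_VEC_CM, and 0 were lower by the same rule. Among them were Stat2, Tapbp, Ifitm3, Eif2ak2, Dtx3l, Parp10, Samd9l, Trim30a, Rnf213 and Lgals3bp. Lgals3bp, a secreted glycoprotein that binds galectin-3, was at 182, 185 and 198 CPM in VEC_CM, 189, 184 and 185 CPM in TGF_VEC_CM and 593, 583 and 603 CPM in TGF_KD_CM. The VEC_CM and TGF_VEC_CM libraries overlapped, and TGF_KD_CM was 3.15-fold above VEC_CM (log2 1.66 ± 0.028; edgeR adjusted p = 7.75e-54). Ifitm3, which blocks the fusion of viruses with the cell, was at 199, 210.4 and 205 CPM in VEC_CM, 194, 193 and 191 CPM in TGF_VEC_CM and 646, 710.1 and 689.7 CPM in TGF_KD_CM, 3.33-fold above VEC_CM. Samd9l, an interferon-induced restriction factor, was at 21.6, 23.5 and 21.9 CPM in VEC_CM, 19.4, 21.8 and 23.3 CPM in TGF_VEC_CM and 159.9, 170.1 and 167 CPM in TGF_KD_CM, a rise of 2.89 ± 0.049. Fbxo32, a ubiquitin ligase subunit known for muscle protein breakdown, belonged to the 16 as well (log2 1.05 ± 0.12).

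**Figure D5:**
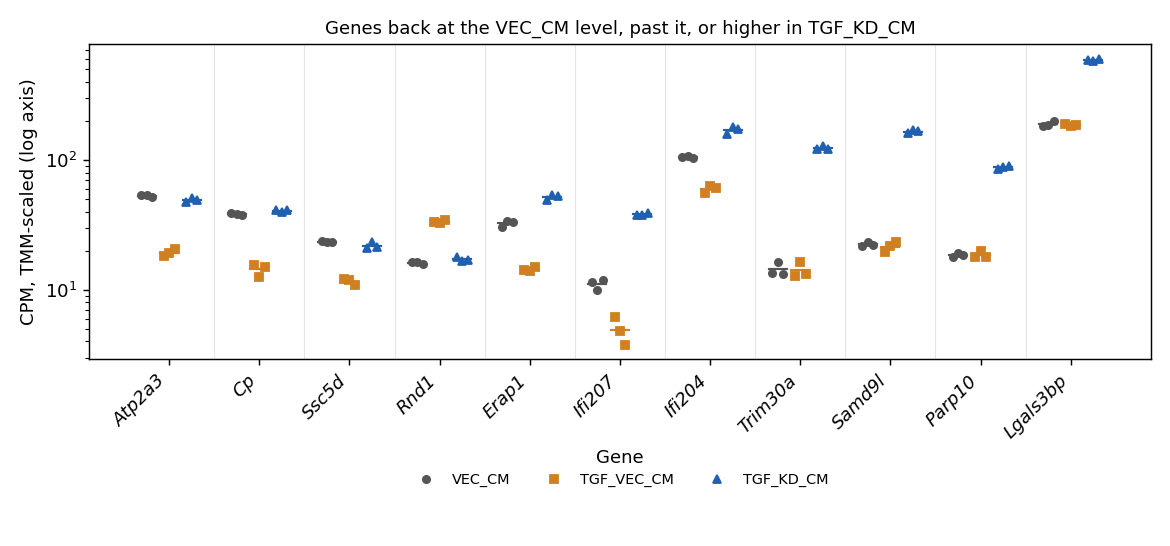
Level in each library of VEC_CM (grey circles), TGF_VEC_CM (orange squares) and TGF_KD_CM (blue triangles), in TMM-scaled CPM on a log axis with a bar at the group mean, for genes back at the vector level (Atp2a3, Cp, Ssc5d, Rnd1), past it (Erap1, Ifi207, Ifi204), or higher in TGF_KD_CM with TGF_VEC_CM near VEC_CM (Trim30a, Samd9l, Parp10, Lgals3bp). For Erap1 the group means are 32.5, 14.4 and 51.8 CPM in that order, and for Lgals3bp 188, 186 and 593 CPM.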

How the data were processed

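Messenger RNA of 12 libraries in 4 groups of 3 was compared, of which TGF_KD_CM and VEC_CM form the contrast. The deposited table holds whole-number read counts per gene with no normalization, and a second deposited table holds FPKM values, which equal those counts divided by the column total and 1 length per gene to within 0.000198%. Per the labels' protocols, a SMARTER mRNA kit was used on 1.3 µg of RNA. The submitters' processing notes name the build GRCm38 (mm10). How reads were aligned, counted and assigned to a strand is not given in the sources used here, so antisense and overlapping genes cannot be separated. Library totals were 33379207 to 37226153 counts.

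The main test was edgeR's (version 4.0.16, R 4.3.3) on the counts: filterByExpr by group (10219 genes removed), TMM factors and 1 robust quasi-likelihood fit with a mean for each of the 4 groups over all 12 libraries. P-values are two-sided and adjusted by Benjamini-Hochberg over 14400 genes, with a threshold of 0.05. The common biological coefficient of variation was 0.0341. A value after ± on a log2 fold change is its standard error (SE), taken as the size of the change divided by the square root of its F statistic. The 95% intervals were built from that SE in the same fit. Alternatives were other size factors, DESeq2 1.42.0, other filters, a fit of the 6 libraries alone, the replicate number as a block, limma 3.58.1 on log2 of the deposited FPKM plus 1 or 0.1, glmTreat, and each library left out.

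The members and the 31 gene lists (24 pathways and 7 cell types) were chosen with earlier results of these data known; the lists hold 640 entries, of which 627 were in the table. Genes were named by rule: the 10 largest rises and falls among genes called, with no overlap between groups and at least 4 CPM, the 3 called rises and falls of lowest p in each list, the 6 largest changes of each class, and a short preset list. Other list members named were chosen after their values were seen. Positions and promoter sequences are from RefSeq (GRCm38.p6), in which 95.1% of symbols were found. The 3 numbered pairs of libraries share only a number. Some genes that the naming rule takes are not reported here. The mature sequence of the human microRNA was not used here.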

Additional observations from a re-analysis of the deposited data

How the results depend on the processing

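The counts of all genes higher and lower and the counts of interferon effectors, MHC class I, sterol and TGF-beta response genes stayed within 1.5 times of those reported under the alternatives run, with the exceptions given here. With glmTreat, whose test asks for more than 1.2-fold, 1121 genes were higher and 554 lower, 7 matrix genes were higher, and 7 genes each of the ERK and replication lists were lower. Requiring 1 CPM in 3 libraries, which drops scarce genes, left 431 genes at least 2-fold higher, 115 lower and 304 held above. With limma on log2(FPKM + 1), which shrinks changes of scarce genes, 136 and 32 genes were at least 2-fold higher and lower, 43 and 24 held above and below, 2 back from above, 3 past and higher, 0 past and lower, and 25 higher in TGF_KD_CM with TGF_VEC_CM near VEC_CM. With log2(FPKM + 0.1) the counts were 325 and 90 at least 2-fold, and 198 and 56 held. With no filter, 14 genes were back from above, 0 were past and lower, and 7601 were at the vector level. By the formula used for the SE, a change of 0 gives an interval of width 0, which meets the margin. Genes with almost no counts in both groups can meet it this way, so these counts do not show more genes at the vector level. How many did so was not tested. A margin of 1.5-fold, chosen after seeing the data, put 9815 genes at the vector level, 15 and 28 back from above and below, and 45 and 4 in the class of genes higher and lower in TGF_KD_CM with TGF_VEC_CM near VEC_CM.

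Leaving out each library of the contrast gave 2685 to 2818 genes higher and 2545 to 2762 lower, 600 to 635 and 158 to 189 at least 2-fold, 419 to 456 held above and 79 to 90 below, and 5550 to 5657 at the vector level. Back from above were 0 to 2 and from below 2 to 3, past and higher 6 to 8, past and lower 0 to 2, and higher or lower in TGF_KD_CM with TGF_VEC_CM near VEC_CM 11 to 16 and 0 to 1. Replication genes lower numbered 26 to 32, ERK genes lower 11 to 13, matrix genes higher 14 to 15, and the interferon, MHC class I, sterol and TGF-beta counts were 25, 13, 19 and 15 each time. Of 3567 combinations of 224 genes taken for naming and settings 3470 kept direction and call, and 94 lost the call, 60 of them under glmTreat. The latter include Col1a2, Col3a1, Fn1, Col6a3, Pparg, Lpl, Tgfbr1, Bmpr2, Ebp, Ly6a, Crtap, Mavs, Calr, Pdia3, Fosl1, Fosl2 and Samhd1. Acta2 and Rsad2 each gained the call once, as given above, and 1 gene changed sign: Il6, which was not called, at -0.065 without VEC_CM replicate 1 (0.262 without VEC_CM replicate 2).

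Libraries of TGF_KD_CM and VEC_CM with the same replicate number deviated together by r of 0.014, 0.034 and 0.017 across genes, so the numbers were not taken to pair them, although each library correlated best with its own number, a hint from the data and not from the design. With the replicate number as a block 3122 genes were higher and 3057 lower, 656 and 194 at least 2-fold, and 6072 at the vector level. At these depths 3 counts stood for at most 0.0899 CPM, and in the main fit no gene with a mean below 4 CPM met the 1.2-fold interval.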
